A study of Mus musculus with 42 samples.

Results

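Opposite-strand RNAs are transcripts named for a gene that lies on the other strand of the same locus, such as Dtnbos for Dtnb. In the deposited count table of 40701 gene symbols, 292 symbols ended in os, with or without a digit, and had the rest of their name in the same table. The 121 with at least 50 counts summed over the 42 libraries are described here with their 116 partner genes, 237 genes in all. Of the others 171 stayed below the minimum, 39 of them at 0. The lowest member had 51 counts and the highest candidate left out had 49. The members were thus chosen by summed counts and name, with no use of kidney state or fraction. 82 members had at least 200 counts, and 9 members shared 4 partners between them.

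The study profiled the renal cortex of mice 12 weeks old with an obstructed ureter, an injury that leads to tubule loss and scarring. The proximal tubule fraction (PT) is RNA that anti-GFP beads took from cortex extract, by translating ribosome affinity purification (TRAP). A second fraction carries the label total kidney (Total), with no word on whether it is what the beads left behind. Each fraction has contralateral kidneys as controls, kidneys at day 5 and kidneys at day 10 of obstruction, with 4 male and 3 female libraries in each of these 6 groups. All groups share the age and the cortex. The bead step is described for PT, and whether Total RNA went through it is unclear from the sources used here. The strain, the GFP transgene, the promoter that drives it and the day of the contralateral kidneys are not given in the sources used here. Nothing states that each library is a separate mouse, so p-values measure the spread between these libraries. Libraries held between 9.31 and 43.6 M counts (PT 12.5 to 43.6 M, Total 9.31 to 23.8 M).

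Antisense transcripts overlap a gene on the other strand, and divergent transcripts start next to a gene's own start and run the opposite way. Promoters rich in CG dinucleotides often start transcription in both directions, and many such noncoding partners are short-lived and scarce. Some host microRNAs or act on their neighbour, while most have no known role. Since RNA was taken with ribosomes in PT, a long noncoding RNA in that fraction is one that came down with them or with the beads.

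The label of noncoding RNA was checked against GENCODE M21 by symbol. It lists 97 of the 121 members as antisense, 7 as processed transcripts, 6 as lincRNA, 1 as a bidirectional promoter RNA and 1 as a pseudogene, and 3 had no match. The annotation goes against the label for 6 members listed as protein coding, among them Ccpg1os, Cebpzos, Wdr83os, Slc7a6os and Fancd2os. Exons of the RNA and its partner overlapped on opposite strands in 68 pairs. In 21 pairs the genes overlapped without shared exon bases, in 21 they were apart and divergent, in 4 apart and convergent, and 7 could not be placed. The length implied by the deposited values equalled the M21 exon length within 0.2% for 100 of 114 members compared. The strand setting of the counting is not given in the sources used here. Where exons overlap, reads of an RNA and its partner therefore cannot be told apart. Across 118 placed members the median share of exon bases that also belong to another gene was 6.85%, with no shared base in 40 members and more than 50% shared in 12.

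Start regions could be read for 73 members and 92 partners from RefSeq windows of 300 bases on GRCm38.p6, each 250 bases before a start and 50 after it. Both windows were there for 62 pairs. In 19 of these the windows had a run of at least 30 bases in common on opposite strands, in 18 of at least 50. Base composition was read from the first window listed for each symbol, which need not be the shared one where a member had several. In the 19 members with a shared window the median GC content was 68.7%, with 30 CG dinucleotides. It was 54.0% with 6 in the 43 members without a shared window and 52.7% with 7 over all 27025 such RefSeq windows. The letters TATAAA, searched on both strands, stood in none of the windows so read of the 19 members. They stood in 9.3% of the 43 others and in 14.16% of all 27025. The stretches between the paired starts of Lhx1os with Lhx1 and of Ccpg1os with Ccpg1 are shown because these RNAs were among the members highest per length. They are the longest parts free of annotated UTR and coding bases, read on the strand of the opposite-strand RNA, 5′ to 3′, with CG in capitals.
Lhx1os and Lhx1, GRCm38.p6 chr11:84525536-84525659, plus strand, 66.1% GC: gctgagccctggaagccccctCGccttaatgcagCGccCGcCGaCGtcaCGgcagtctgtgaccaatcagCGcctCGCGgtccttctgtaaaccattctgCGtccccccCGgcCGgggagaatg
Ccpg1os and Ccpg1, GRCm38.p6 chr9:72985377-72985428, minus strand, 67.3% GC: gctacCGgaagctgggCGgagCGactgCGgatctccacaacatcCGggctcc
The first holds 12 CG dinucleotides in 124 bases and the second 5 in 52.

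The next sequences are the 250 bases before the starts of the 3 members that went against their partners in the kidney (Slc13a2os, Slc6a19os and Fancd2os) and of 2 that fell with them (Hnf4aos and Ctcflos). Each is read 5′ to 3′ on the RNA's own strand, with CG in capitals. For Slc13a2os, Slc6a19os and Hnf4aos the partner's window was also there, and none of the 3 had a run of 30 bases in common with it.
Slc13a2os, GRCm38.p6 chr11:78394235-78394484, plus strand: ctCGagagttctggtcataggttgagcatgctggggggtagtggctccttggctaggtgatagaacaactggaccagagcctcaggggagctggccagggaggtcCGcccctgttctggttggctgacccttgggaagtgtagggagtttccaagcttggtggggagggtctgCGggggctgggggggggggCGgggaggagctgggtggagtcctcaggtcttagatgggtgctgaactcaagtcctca
Slc6a19os, GRCm38.p6 chr13:73699705-73699954, plus strand: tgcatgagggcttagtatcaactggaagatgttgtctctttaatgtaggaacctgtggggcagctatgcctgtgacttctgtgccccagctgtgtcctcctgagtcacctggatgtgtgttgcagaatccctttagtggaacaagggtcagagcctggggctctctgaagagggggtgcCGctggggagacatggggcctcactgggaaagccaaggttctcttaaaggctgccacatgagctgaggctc
Fancd2os, GRCm38.p6 chr6:113600716-113600965, minus strand: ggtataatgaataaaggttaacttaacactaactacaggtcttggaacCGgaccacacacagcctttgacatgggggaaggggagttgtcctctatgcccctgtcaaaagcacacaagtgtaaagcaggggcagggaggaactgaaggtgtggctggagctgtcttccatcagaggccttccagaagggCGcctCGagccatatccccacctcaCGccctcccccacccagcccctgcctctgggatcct
Hnf4aos, GRCm38.p6 chr2:163541722-163541971, minus strand: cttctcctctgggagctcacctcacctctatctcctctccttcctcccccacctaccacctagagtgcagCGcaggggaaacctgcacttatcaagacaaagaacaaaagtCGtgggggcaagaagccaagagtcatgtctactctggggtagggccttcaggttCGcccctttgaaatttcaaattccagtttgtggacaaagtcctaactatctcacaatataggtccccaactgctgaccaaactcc
Ctcflos, GRCm38.p6 chr2:173124499-173124748, plus strand: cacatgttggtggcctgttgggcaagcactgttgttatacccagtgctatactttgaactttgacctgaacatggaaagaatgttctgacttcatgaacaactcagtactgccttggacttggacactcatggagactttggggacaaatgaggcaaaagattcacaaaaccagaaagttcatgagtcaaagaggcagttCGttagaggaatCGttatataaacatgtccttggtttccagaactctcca
These 5 held between 1 (Slc6a19os) and 4 CG dinucleotides (Slc13a2os and Fancd2os), with 3 before Hnf4aos and 2 before Ctcflos. Only the Ctcflos stretch of the 5 held TATAAA, 1 time.

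Per length, most opposite-strand RNAs were scarce next to their partners. The median of the members' mean RPKM (reads per kilobase and M reads) over all libraries was 0.486, with a range of 0.0244 to 26.5, and 42 members reached 1 RPKM. For the partners the median was 3.31 RPKM, with a range of 0.013 to 106, and 88 reached 1 RPKM. By group medians the RNA stood above its partner in 24 to 29 of the 121 pairs, depending on the state and fraction. The highest members were Lhx1os (26.5 RPKM, its partner Lhx1 6.01), Wdr83os (24.8, Wdr83 17.7), Cebpzos (22.9, Cebpz 14.9), Ccpg1os (22.2, Ccpg1 0.143) and Hoxb5os (21.8, Hoxb5 3.39). M21 lists 3 of these 5, Wdr83os, Cebpzos and Ccpg1os, as protein coding. Of the exon bases of Ccpg1, 55.8% also belong to Gm44503 or Pigb, so the authors' counting could have left its reads unassigned, and its low level is uncertain.

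**Figure D1:**
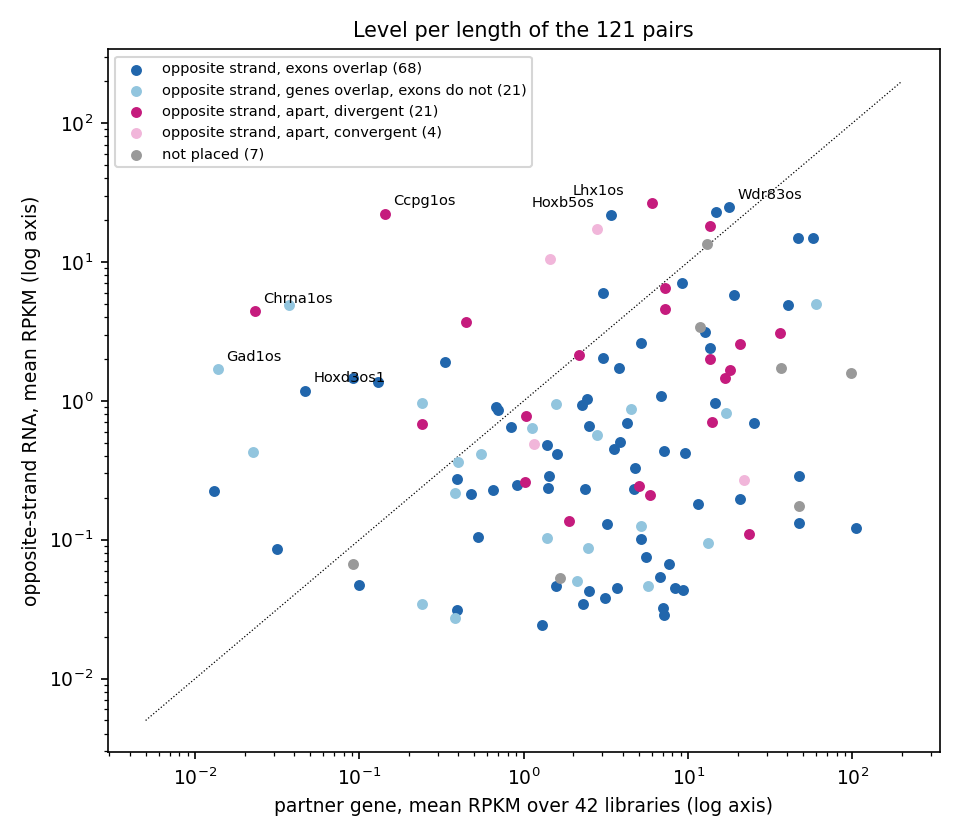
Mean RPKM over the 42 libraries of each opposite-strand RNA (vertical, log scale) against its partner (horizontal, log scale) for the 121 pairs, coloured by their arrangement in GENCODE M21, with a line of equal level. Most points lie below the line, and the members' median was 0.486 RPKM against 3.31 RPKM for the partners.

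Levels from here on are in counts per M (CPM) on one scale of composition factors, given as the lowest, the median and the highest of the 7 libraries of a group. Changes are log2 fold changes ± standard error from edgeR's quasi-likelihood test. A gene rose, fell or differed where the Benjamini-Hochberg adjusted p over all genes tested was under 0.05 and the change at least 2-fold. The filter on low counts kept 73 members in PT, 89 in Total and 97 in the fit of both fractions. A member could pass it through its high group alone, so the counts of called members below are descriptions. Bulk RNA cannot tell fewer cells of a type from less RNA per cell. The labelled cell type was present in all PT libraries, where 12 proximal tubule markers summed to 15807 to 27665 CPM in contralateral kidneys. They summed to 2519 to 6809 CPM at day 5 and 1600 to 12560 CPM at day 10, and each of the 12 was detected. In Total they fell from 9904 to 18536 CPM to 1265 to 4041 CPM at day 5 and 676 to 4465 CPM at day 10. In PT, 10 macrophage markers summed to 9.96 to 15.8 CPM in contralateral kidneys and 103 to 183 CPM at day 5, and 10 fibroblast markers to 6.2 to 12 and 33 to 61 CPM. The part of these shifts in the members' changes was not tested. The level of Lars2 varied widely among the libraries of a group, from 2620 to 43617 CPM in PT at day 10, and with it as a covariate the members called were 22 at day 5 and 26 at day 10 in PT. Of all 14932 genes tested in PT, 4535 and 4844 were then called.

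Over all arrangements together, obstruction changed about the share of opposite-strand RNAs that it changed of all genes. In PT at day 5, 11 of the 73 tested members rose and 13 fell, 32.9% against 30.6% of all 14932 genes tested (18.2% higher, 12.4% lower), and 28 of 108 tested partners were called. At day 10 there were again 11 higher and 13 lower, with a background of 31.7% (19.7% higher, 12% lower). In Total 14 of 89 members rose and 16 fell at day 5 (33.7%, background 32.5%, 19.2% higher and 13.3% lower), and 15 rose and 15 fell at day 10 (background 34.6%, 20.9% higher and 13.8% lower). With library size as the only scaling the median of all genes moved by about 0.4 to 0.5 on the log2 scale, from 0.052 to 0.523 in PT at day 5. The members then split 19 higher to 6 lower in PT at day 5, 16 to 10 at day 10, and 21 to 8 and 20 to 9 in Total. Of all genes called under that scaling, 83.2% and 82.9% were higher in PT and 80.4% and 76.0% in Total. Changes are relative to composition factors, and no call of a gene named here turned its direction under that scaling. The median log2 change of the tested members was -0.07 at day 5 in both fractions, and of all genes 0.05 in PT and 0.04 in Total. By arrangement, 2 of 16 divergent members were called in PT at day 5 (12.5%). With overlapping exons it was 16 of 41 (39.0%), and with overlapping genes alone 6 of 9 (66.7%). These shares were 6.25%, 41.5% and 66.7% in PT at day 10, and 16.7%, 37.5% and 57.1% in Total at day 5. The sets are small, and differences among them were not tested.

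Between day 5 and day 10 no member was called in either fraction, against 0.442% of all genes in PT (0.422% higher, 0.0201% lower) and 0.393% in Total (0.352% higher, 0.0417% lower). An unadjusted p under 0.05 was found for 6 of the 73 members in PT, against 1573 of all 14932 genes, and for 12 of the 89 in Total, against 1930 of 16782. limma-voom called 1 member in each fraction and DESeq2 1 in Total.

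Pairs were then compared gene by gene. In PT at day 5, 67 pairs had both genes tested. Both were called in the same direction in 9 and in opposite directions in 3, the RNA alone in 10, the partner alone in 9 and neither in 36. In Total at day 5 these counts were 10, 3, 15, 10 and 46 of 84 pairs. In contralateral kidneys, PT against Total gave 14 pairs with both genes called in the same direction and none in opposite directions, with 14 RNAs and 13 partners called alone and 51 pairs with neither. PT against Total gave 1 pair called in opposite directions at day 5, Rap1gapos (1.29 ± 0.48) with Rap1gap (-1.87 ± 0.23). At day 10 it gave 1 as well, Arhgap27os3 (-3.09 ± 0.52) with Arhgap27 (1.03 ± 0.14). Both are outside the rule for named genes and were chosen after their values were seen. The 3 pairs of the obstruction comparisons called in opposite directions at day 5 were those of Slc13a2os, Slc6a19os and Fancd2os, in PT and in Total. At day 10, against the same control libraries, the same 3 pairs were opposite in PT and those of Slc13a2os and Fancd2os in Total.

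**Figure D2:**
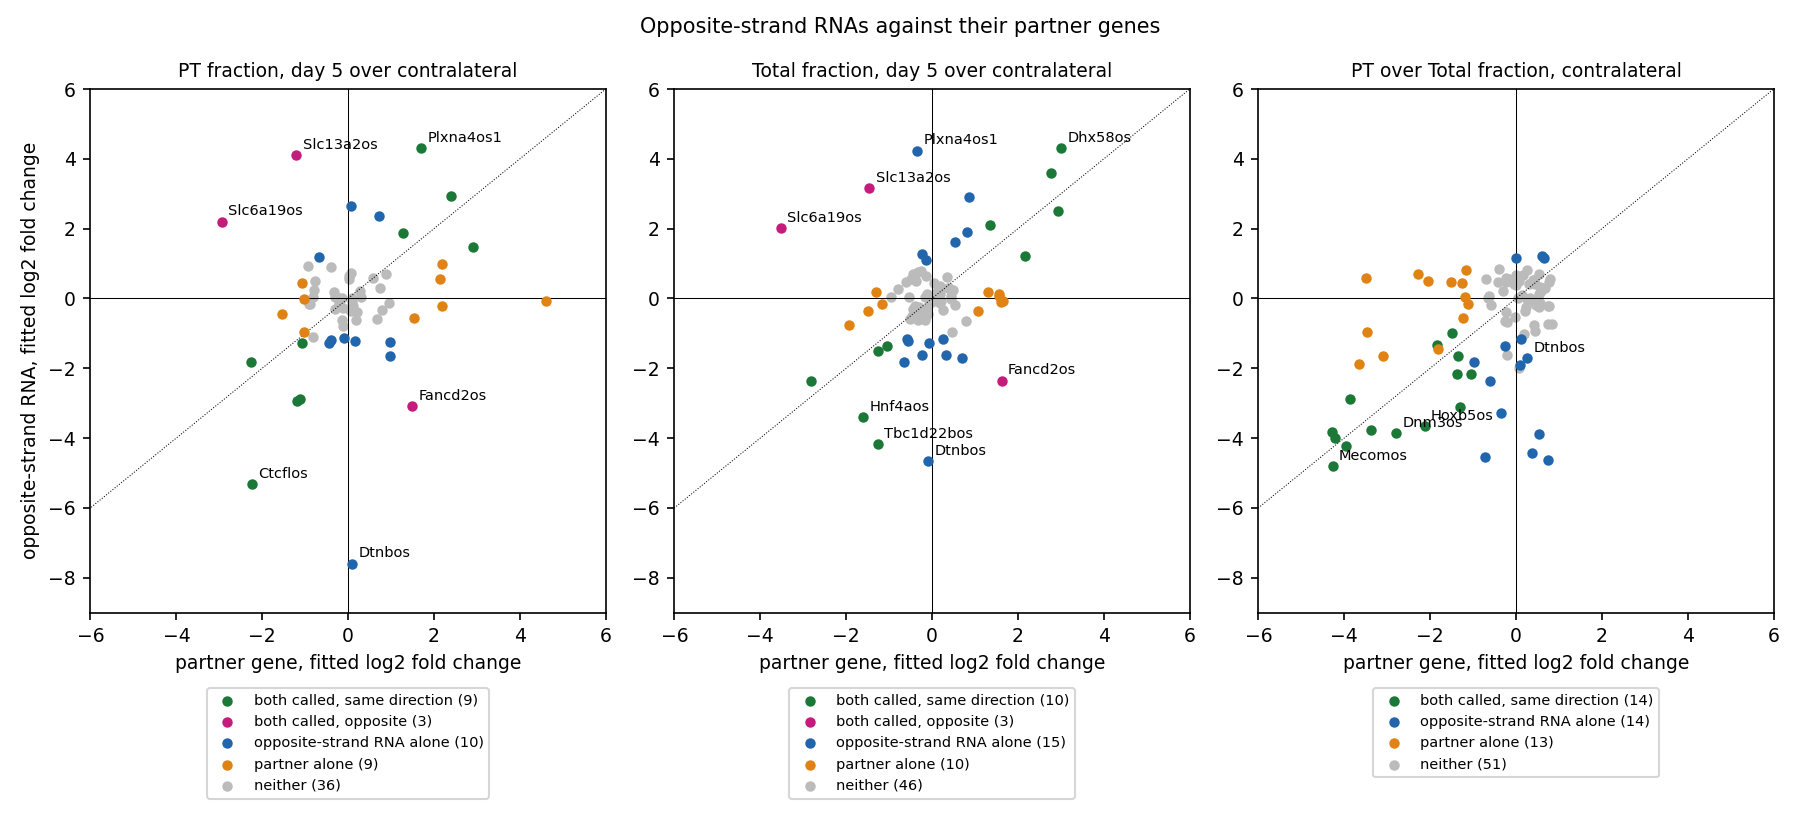
Log2 fold change of each opposite-strand RNA (vertical) against that of its partner (horizontal) for pairs with both genes tested, in PT at day 5, in Total at day 5 and in PT against Total of contralateral kidneys, coloured by which of the pair was called. The 3 named pairs of opposite calls lie in the off-diagonal parts of the first and second panels, and the third panel holds no pair called in opposite directions.

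Slc13a2 encodes the sodium-coupled citrate and dicarboxylate carrier of the proximal tubule brush border. Its opposite-strand RNA was near the limit of detection in contralateral PT, at 0.0739 to 1.00 CPM with a median of 0.316. Slc13a2os stood at 5.07 to 9.64 CPM (median 6.79) at day 5 and 2.28 to 8.65 CPM (median 6.37) at day 10 in the same fraction. Every obstructed PT library was above every contralateral one, and the rise was 4.11 ± 0.32 at day 5 (adjusted p = 1.1e-09) and 3.84 ± 0.31 at day 10. In Total Slc13a2os went from 0.0476 to 0.995 CPM (median 0.478) to 2.85 to 6.38 CPM (median 3.72) at day 5, a rise of 3.16 ± 0.35. The carrier itself fell in PT from 16.1 to 74.7 CPM (median 30.3) to 11.5 to 20.7 CPM (median 15.6) at day 5, by 1.21 ± 0.18 on the log2 scale, and the ranges of both groups overlapped. This PT call for Slc13a2 was lost with library size as the only scaling. In Total Slc13a2 fell without overlap, from 14.8 to 36.2 CPM to 6.98 to 11.0 CPM (-1.46 ± 0.16). The log2 ratio of RNA to partner within a library uses no scaling factor. At few counts its size depends on the 0.5 added to each count and on depth. This ratio averaged -6.52 ± 1.05 (SD, n = 7) in contralateral PT and -1.14 ± 0.45 at day 5, with p = 0.001429 in an exact permutation test within sex. That is the smallest p the 1400 arrangements can give. The pairs of Slc13a2os, Slc6a19os and Fancd2os were singled out by opposite calls in these same libraries. Their ratio p-values are therefore descriptions and no separate evidence. In M21, 17.4% of the RNA's exon bases lie over exons of Slc13a2, so some of its reads may be those of the carrier.

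Slc6a19 encodes the main carrier for neutral amino acids in the brush border, and Slc6a19os lies within the gene without shared exon bases. In contralateral PT Slc6a19os stood at 0.25 to 1.34 CPM with a median of 0.389. It was at 1.58 to 3.90 CPM (median 3.19) at day 5 and 1.75 to 3.10 CPM (median 2.26) at day 10, in each case above all 7 controls. The rise was 2.20 ± 0.35 at day 5 (adjusted p = 2.2e-05) and 1.75 ± 0.35 at day 10. In Total it rose at day 5 (2.02 ± 0.42), from 0.0611 to 0.429 CPM to 0.675 to 1.62 CPM, and at day 10 its change of 0.98 ± 0.45 did not pass. The carrier Slc6a19 fell in PT from 196 to 447 CPM (median 296) to 24.0 to 53.8 CPM (median 41.7) at day 5, a change of -2.94 ± 0.23 with no overlap. In Total its fall was -3.52 ± 0.23 at day 5 and -4.02 ± 0.24 at day 10. The pair ratio of Slc6a19os to Slc6a19 changed by 5.32 in PT at day 5 and by 5.52 in Total, without overlap (exact permutation p = 0.001429 each). PT stood above Total for Slc6a19os in every state, by 1.22 ± 0.42, 1.37 ± 0.34 and 2.03 ± 0.37 in contralateral, day 5 and day 10 kidneys. The first of these calls was lost with library size as the only scaling, with limma-voom, and without female contralateral PT library 1 or male contralateral PT library 4.

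Fancd2os, which M21 lists as protein coding, went the other way round. It was at 4.03 to 9.22 CPM (median 5.6) in contralateral PT, 0.305 to 1.55 CPM (median 0.592) at day 5 and 0.0797 to 1.94 CPM (median 0.713) at day 10. The groups did not overlap, and the fall was -3.08 ± 0.32 at day 5 (adjusted p = 8.9e-08) and -3.37 ± 0.33 at day 10. In Total it fell by 2.35 ± 0.29 on the log2 scale at day 5 and by 3.40 ± 0.33 at day 10. Fancd2, a protein of the repair of DNA crosslinks that proliferating cells express, stood at 0 to 0.2 CPM in contralateral PT and 0.061 to 1.05 CPM (median 0.328) at day 5. Its rise of 1.5 ± 0.57 there rests on 11 and 53 counts and was lost without any 1 of 5 libraries, male day 5 PT library 3, female contralateral PT libraries 2 and 3, and female day 5 PT libraries 2 and 3. In Total Fancd2 rose from 0 to 0.878 CPM to 0.539 to 2.78 CPM at day 5 (1.62 ± 0.49). Without female contralateral Total library 1 this value was 2.34. The ratio of Fancd2os to Fancd2 dropped by 4.46 in PT and by 4.62 in Total at day 5, each without overlap and with an exact permutation p of 0.001429.

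**Figure D3:**
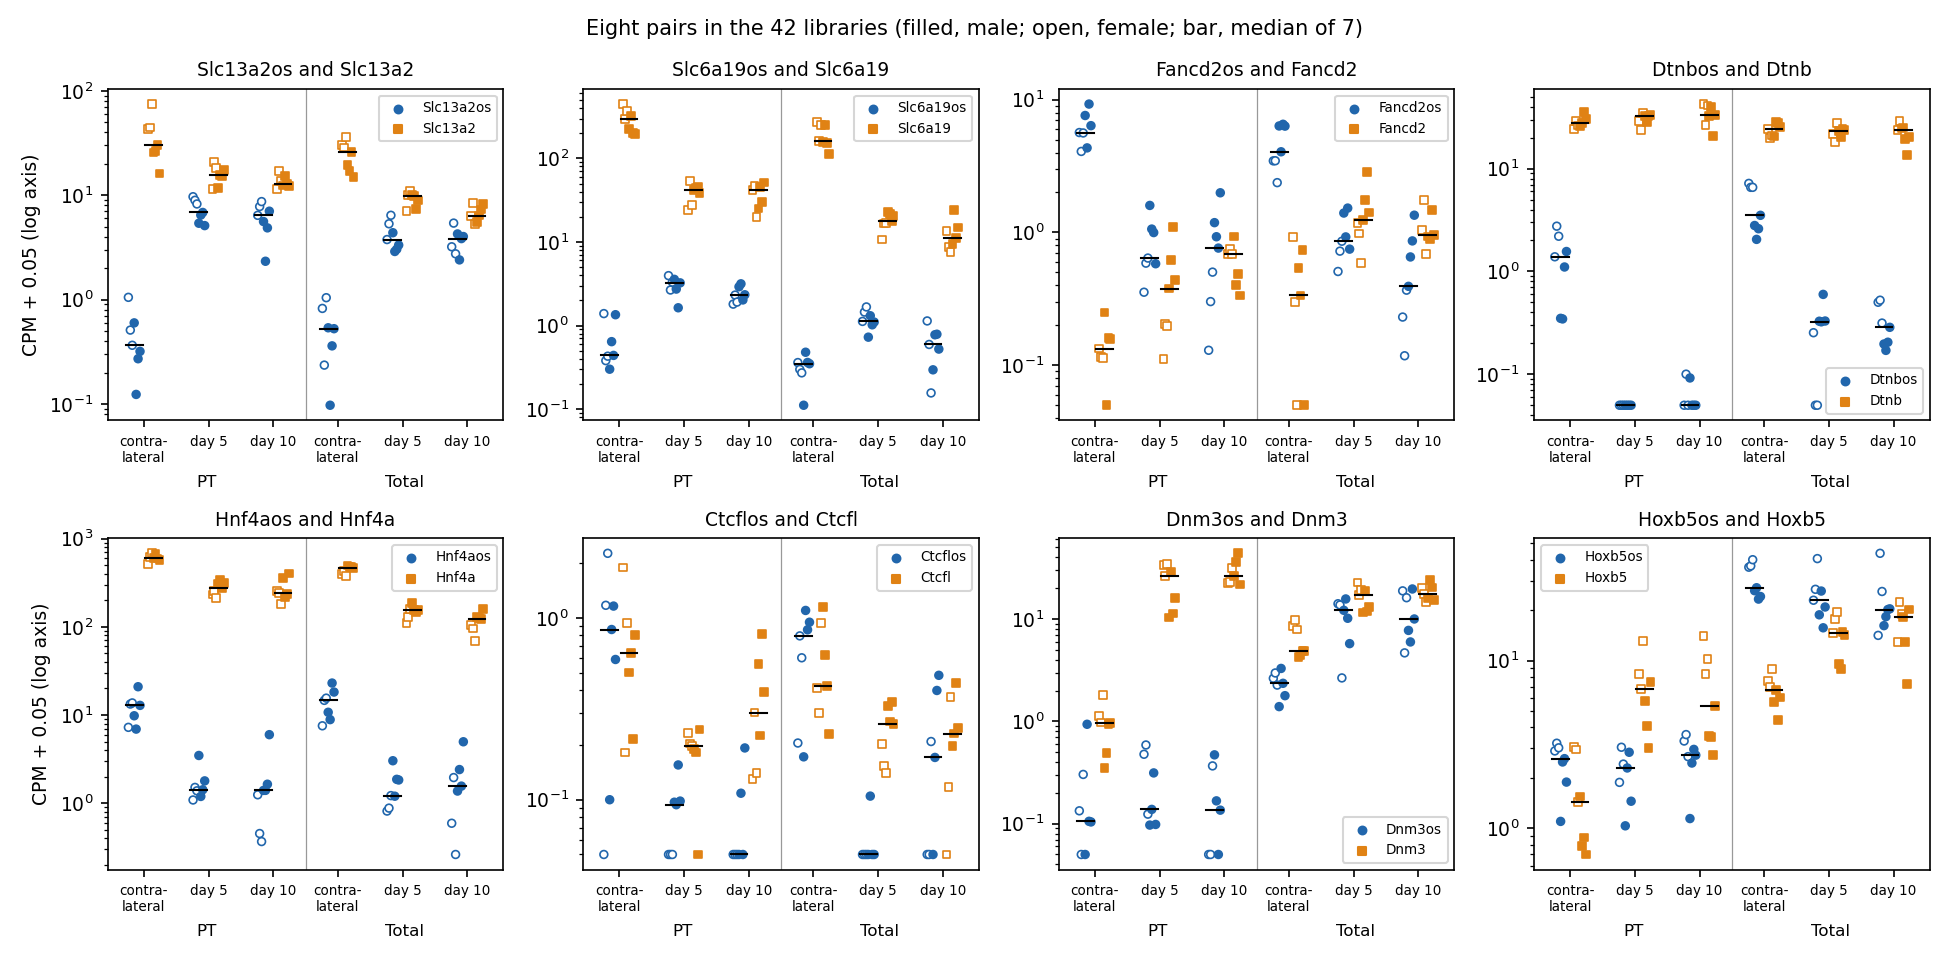
CPM plus 0.05 on a log axis in every library for 8 opposite-strand RNAs and their partners, by state and fraction, with filled points for males, open points for females and a bar at the median of the 7 libraries. Slc13a2os and Slc6a19os stand higher and their partners lower in obstructed kidneys, Dtnbos drops to 0 in PT at day 5, and Dnm3os is near 0 in PT in all 3 states.

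Dtnb encodes a dystrobrevin, a protein of the dystrophin complex at the cell membrane. Dtnbos, within the gene but without shared exon bases, stood at 0.295 to 2.71 CPM (median 1.34, 148 counts in all) in contralateral PT. At day 5 it had 0 counts in all 7 PT libraries and at day 10 2 counts in 2 of them. It was thus at least 7.90-fold lower at day 5, against a floor of 3 counts per library. At day 10 the ratio was 97.4-fold (95% counting interval 26.5 to 811). In Total Dtnbos went from 2.00 to 7.13 CPM (median 3.46) to 0 to 0.548 CPM at day 5 and 0.121 to 0.475 CPM at day 10. These falls were -4.66 ± 0.36 and -4.02 ± 0.34, and the first was -6.48 without female day 5 Total library 1. Dtnb itself stood at 24.3 to 35.7 CPM in contralateral PT and 23.6 to 34.5 CPM at day 5, overlapping throughout, with a change of 0.10 ± 0.16 (adjusted p = 0.61). The ratio of Dtnbos to Dtnb therefore shifted without overlap in both fractions (exact permutation p = 0.001429).

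Ctcfl encodes a relative of the insulator protein CTCF known from the testis, and it was scarce in these kidneys. Ctcflos stood at 0 to 2.21 CPM (median 0.812, 94 counts) in contralateral PT, and at 5 and 6 counts in all at days 5 and 10. Its fall was -5.32 ± 1.08 at day 5 and -5.33 ± 1.03 at day 10 (-6.03 without male day 10 PT library 4), though 1 contralateral library was also at 0. In Total 72 counts in contralateral kidneys stood against 1 at day 5, a 91.6-fold ratio (interval 15.9 to 3667), and 25 at day 10. The call at day 10 in Total was -2.18 ± 0.71, and -3.89 without female day 10 Total library 3. The partner Ctcfl fell in PT from 0.132 to 1.84 CPM to 0 to 0.193 CPM at day 5 (-2.23 ± 0.56). Its call at day 10 (-1.43 ± 0.53) was lost with library size as the only scaling, limma-voom or the replicate block, and without any 1 of 4 libraries (female contralateral PT 1, male contralateral PT 4, female day 10 PT 1 and 3). The pair ratio in PT did not differ (exact permutation p = 0.404 at day 5 and 0.111 at day 10).

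Tbc1d22b belongs to the family of proteins that switch off Rab GTPases. Tbc1d22bos stood at 0.502 to 1.65 CPM (median 0.944) in contralateral PT, 0 to 0.264 CPM at day 5 and 0 to 0.2 CPM at day 10. It fell by 2.88 ± 0.57 and 3.84 ± 0.62 on the log2 scale, and the second value was -5.23 without female day 10 PT library 1. The partner fell from 29.4 to 44.7 CPM to 14 to 18 CPM at day 5 (-1.11 ± 0.14), a call lost with library size as the only scaling. In Total the ratio of Tbc1d22bos to Tbc1d22b dropped by 2.86 at day 5 and by 1.91 at day 10, without overlap (exact permutation p = 0.001429).

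Members beside transcription factors of the kidney tubule were next. Of the 31 tested genes on a list of 38 kidney transcription factors, 6 rose and 6 fell in PT at day 5 (38.7% against 30.6% of all genes, 18.2% higher and 12.4% lower), with a median change of -0.05 against 0.05 for all genes. Hnf4a, a regulator of proximal tubule identity, fell from 511 to 682 CPM (median 602) in contralateral PT to 213 to 338 CPM (median 273) at day 5, by 1.19 ± 0.14 on the log2 scale. Hnf4aos lies within the gene without shared exon bases and stood at 6.87 to 20.9 CPM (median 12.8) in the controls. It was at 1.04 to 3.42 CPM (median 1.37) at day 5 and 0.317 to 5.93 CPM (median 1.35) at day 10, below all controls. The fall of Hnf4aos was -2.94 ± 0.41 at day 5 (adjusted p = 3.9e-06) and -3.29 ± 0.42 at day 10 in PT, and -3.40 ± 0.40 and -3.20 ± 0.40 in Total. Without female day 10 Total library 2 the last value was -3.87. The RNA fell by more than its partner in both fractions. Its log2 ratio to Hnf4a averaged -5.74 ± 0.56 (SD, n = 7) in contralateral PT and -7.46 ± 0.53 at day 5 (exact permutation p = 0.002857), and in Total the ratio dropped by 1.72 without overlap (p = 0.001429, exact). Hnf4aos was not called between PT and Total in any state. Both genes fell with the proximal tubule markers given above, a list that holds Hnf4a itself.

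Lhx1, a LIM homeobox factor of kidney development, and Lhx1os, which starts 125 bases away in the other direction, moved alike. In PT, Lhx1os went from 23.2 to 36.8 CPM (median 27.4) to 11.4 to 19.2 CPM (median 15.2) at day 5, without overlap. Lhx1 went from 29.2 to 34.5 CPM to 14 to 19.3 CPM, also without overlap. The change of -0.96 ± 0.20 for Lhx1os missed the 2-fold minimum and that of -1.03 ± 0.12 for Lhx1 passed it, a call lost with library size or upper-quartile scaling and without male day 5 PT library 3. In Total both fell at day 5, Lhx1os by 1.51 ± 0.18 and Lhx1 by 1.25 ± 0.15 on the log2 scale. Their ratio in PT moved by 0.05 at day 5 (exact permutation p = 0.8).

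Emx2, a homeobox gene of the urogenital tract, was at 38.8 to 50.3 CPM in contralateral PT and 39.2 to 48.3 CPM at day 5. Emx2os, whose exons overlap those of Emx2 by 264 bases, went from 7.44 to 11.6 CPM to 11.2 to 16.7 CPM. Its change of 0.55 ± 0.13 (adjusted p = 0.0011) stayed under 2-fold. The ratio of Emx2os to Emx2 was higher by 0.54 in PT and by 0.81 in Total at day 5 (exact permutation p = 0.001429 each), in Total without overlap.

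Foxd2os and Wt1os were low, and 1 more member beside a kidney factor, Mecomos, stayed under 1 CPM on average in every group and is not described here. Foxd2os stood at 0.216 to 0.792 CPM in contralateral PT and 1.49 to 4.39 CPM in Total, and it was called in neither fraction after obstruction (0.68 ± 0.31 and 0.60 ± 0.22 at day 5). Wt1, the Wilms tumour factor that podocytes carry, rose in PT from 1.26 to 4.60 CPM to 8.21 to 15.7 CPM at day 5 (2.13 ± 0.29). Wt1os, which starts 19 bases from it, stood at 0 to 0.669 CPM and 0.188 to 0.628 CPM in the same libraries, with a change of 0.57 ± 0.66 (adjusted p = 0.48). 8 podocyte markers, Wt1 among them, summed to 34.8 to 61.0 CPM and 43.2 to 68.1 CPM in these PT groups.

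Of the Hox genes, which set position along the body axis, 29 of 39 were tested in PT. At day 5, 8 rose and 1 fell, 31.0% against 30.6% of all genes (18.2% higher, 12.4% lower), with a median of 0.33 against 0.05 for all genes. Their opposite-strand RNAs did not share one direction. Hoxb3os stood at 12.3 to 35.2 CPM (median 14.4) in contralateral PT and 3.77 to 11.4 CPM (median 6.05) at day 5, a fall of 1.66 ± 0.30 on the log2 scale without overlap (adjusted p = 9.6e-05). In Total it fell by 1.63 ± 0.23 at day 5 and by 1.90 ± 0.23 at day 10. Hoxb3 itself was at 0.167 to 0.777 CPM in contralateral PT and 0.791 to 1.84 CPM at day 5, and its change of 0.98 ± 0.32 missed the minimum. The ratio of Hoxb3os to Hoxb3 dropped by 2.66 in PT and by 2.03 in Total at day 5, each without overlap (exact permutation p = 0.001429). Since 76.2% of the exon bases of Hoxb3os also belong to Hoxb3 or Hoxb2, the division of reads among these genes is uncertain.

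Hoxb5os was one of the most abundant members in Total, at 23.2 to 39.9 CPM (median 27.1) in contralateral kidneys and 15.6 to 40.5 CPM (median 22.9) at day 5, against 1.05 to 3.17 CPM and 0.985 to 2.99 CPM in PT. It passed no test of obstruction in PT (-0.21 ± 0.27 at day 5) or Total (-0.35 ± 0.19). Hoxb5 rose in PT from 0.648 to 3.01 CPM (median 1.39) to 2.95 to 13.1 CPM (median 6.76), by 2.18 ± 0.29, and in Total from 4.36 to 8.85 CPM to 8.87 to 19.4 CPM, by 1.08 ± 0.20. The ratio of Hoxb5os to Hoxb5 in Total dropped from 2.21 ± 0.16 to 0.78 ± 0.47 (SD, n = 7) without overlap (exact permutation p = 0.001429).

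Hoxa11os and its partner both rose in Total. In M21, 47.6% of the exon bases of Hoxa11os also belong to other genes, 26% to Hoxa11, so the division of their reads is uncertain. In Total Hoxa11os went from 0.238 to 1.06 CPM to 2.03 to 5.93 CPM at day 5 and 2.78 to 7.41 CPM at day 10, changes of 2.52 ± 0.30 and 3.05 ± 0.30. Hoxa11 rose there by 2.93 ± 0.30 and 3.07 ± 0.30, from 0.179 to 0.857 CPM to 3.02 to 4.63 CPM at day 5. The ratio in Total at day 5 moved by -0.43 (exact permutation p = 0.409). In PT, Hoxa11 rose at day 5 (2.20 ± 0.49, and 3.63 without male contralateral PT library 1) at 0.439 to 1.03 CPM, and Hoxa11os did not pass (0.99 ± 0.53). Hoxd3os1 stood at 0.81 to 3.43 CPM in contralateral PT and 1.5 to 3.11 CPM at day 5, and it was called in neither fraction after obstruction. Hoxd3 had 6 counts in contralateral PT, with 4 of 7 libraries at 0, and in M21 62.8% of its exon bases also belong to other genes.

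Plxna4os1 and Dhx58os were near 0 in contralateral kidneys and rose after obstruction. Plxna4 encodes a plexin, a receptor for semaphorins. Plxna4os1 went in Total from 0 to 0.685 CPM (median 0.238) to 2.70 to 7.01 CPM (median 3.67) at day 5 and 3.38 to 6.22 CPM (median 4.61) at day 10, with all obstructed libraries above all controls. The rises were 4.23 ± 0.32 (adjusted p = 1.2e-10) and 4.49 ± 0.32. In PT it had 2 counts in contralateral kidneys, 37 at day 5 and 62 at day 10, ratios of 16.5 (interval 4.26 to 141) and 23.6 (interval 6.25 to 199). Plxna4 stood in Total at 3.38 to 5.53 CPM in contralateral kidneys and 2.34 to 4.93 CPM at day 5 and was not called (-0.35 ± 0.19). In PT Plxna4 rose from 0.126 to 1.18 CPM to 0.854 to 2.21 CPM (1.70 ± 0.30). The change of Plxna4 at day 5 differed between the fractions (interaction 2.03 ± 0.34, adjusted p = 7.3e-05).

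Dhx58 encodes an RNA helicase of the sensing of viral RNA, induced by interferon. In Total Dhx58os went from 0 to 0.258 CPM to 0.913 to 5.12 CPM (median 1.85) at day 5 and 2.17 to 6.18 CPM (median 4.31) at day 10, rises of 4.30 ± 0.43 and 5.41 ± 0.43 without overlap. Without female contralateral Total library 1 these values were 5.08 and 6.19. Dhx58 rose from 0.305 to 0.776 CPM to 3.16 to 6.62 CPM at day 5 (3.00 ± 0.29) and 1.81 to 5.55 CPM at day 10 (2.53 ± 0.29). The ratio of Dhx58os to Dhx58 in Total was higher by 1.30 at day 5 (exact permutation p = 0.01) and by 2.93 at day 10 (p = 0.001429, exact, no overlap). In PT, Dhx58os had 1 count in contralateral kidneys, 10 at day 5 and 65 at day 10, with ratios of 8.92 (interval 1.27 to 387) and 49.4 (interval 8.56 to 1981). In Total, where these 2 RNAs were highest, macrophage markers summed to 59.3 to 149 CPM in contralateral kidneys and 591 to 1297 CPM at day 5, and fibroblast markers to 109 to 200 and 863 to 1175 CPM. Lymphocyte markers summed to 6.28 to 9.73 and 27.5 to 58.5 CPM, while proximal tubule, loop of Henle with distal tubule, and collecting duct markers fell. The part of any of these cells in the rises of the 2 RNAs was not tested.

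The fractions were compared next. In contralateral kidneys 29 of 97 tested members differed between PT and Total, 3 higher and 26 lower in PT (29.9%, background 24.1%, 1.16% higher and 22.9% lower). At day 5 the members were 7 higher and 26 lower (background 27.8%, 4.02% higher and 23.8% lower) and at day 10 3 higher and 28 lower (background 30.1%, 7.07% higher and 23.0% lower). With library size as the only scaling the splits were 0 to 34, 4 to 29 and 3 to 30. Of all genes called under that scaling, 0.6%, 4.7% and 10.6% were higher in PT. Fitted to the compared groups alone, the contralateral count was 10, against 3115 of 14859 genes tested. All 8 podocyte markers and all 10 endothelial, 10 fibroblast and 10 macrophage markers were also lower in PT of contralateral kidneys. The endothelial markers summed to 8.8 to 19.3 CPM in PT and 235 to 316 CPM in Total, and the fibroblast markers to 6.2 to 12 and 109 to 200 CPM. Loop of Henle and distal tubule markers summed to 109 to 220 CPM in PT and 1913 to 5506 CPM in Total. Collecting duct markers summed to 45.8 to 89.1 and 176 to 324 CPM, and lymphocyte markers to 0.162 to 2.28 and 6.28 to 9.73 CPM. Only the proximal tubule list summed higher in PT, to 15807 to 27665 CPM against 9904 to 18536 CPM. The part of the other cells in the members' differences was not tested.

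Dnm3os was far lower in PT than in Total. It is the host of the microRNAs miR-199a-2 and miR-214, which M21 places on its strand, and lies within Dnm3, a dynamin GTPase of membrane traffic. Dnm3os stood at 0 to 0.886 CPM in contralateral PT (19 counts), 0.0469 to 0.537 CPM at day 5 and 0 to 0.421 CPM at day 10. In Total it was at 1.34 to 3.24 CPM (median 2.30), 2.61 to 15.7 CPM (median 12.1) and 4.62 to 19.6 CPM (median 9.96). It rose in Total by 2.12 ± 0.40 at day 5 and 2.32 ± 0.40 at day 10, and PT lay below Total by 5.71 ± 0.62 on the log2 scale at day 5. Dnm3 rose in PT from 0.3 to 1.77 CPM (median 0.918) to 10.3 to 34.3 CPM (median 26.5) at day 5 (4.65 ± 0.30, adjusted p = 8.5e-11), and in Total from 4.21 to 9.69 CPM to 11.5 to 22.7 CPM (1.35 ± 0.15). That difference between fractions in the response of Dnm3 was 3.27 ± 0.31 (interaction, adjusted p = 1.1e-09). At day 5 the partner was thus abundant in PT while its opposite-strand RNA was near 0 there, and the pair ratio differed between PT and Total by -6.03 without overlap (exact permutation p = 0.001429).

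Hoxb5os, Plekhd1os and Unc45bos were also low in PT against Total. Hoxb5os differed by -3.66 ± 0.24 in contralateral kidneys (adjusted p = 1.4e-15) with no overlap, and Hoxb5 by -2.12 ± 0.26. Plekhd1os, which starts 125 bases from Plekhd1 on the other strand, stood at 0 to 0.33 CPM in PT and 1.88 to 2.45 CPM in Total (-3.83 ± 0.56), and Plekhd1 at 0.1 to 0.924 and 6.04 to 18.6 CPM (-4.30 ± 0.41). Both Plekhd1os and Plekhd1 fell in Total at day 5, by 1.36 ± 0.33 and 1.05 ± 0.20 on the log2 scale, calls lost with library size as the only scaling. That of Plekhd1 was also lost with upper-quartile scaling and without male day 5 Total library 3 or female contralateral Total library 1. Unc45bos, beside a myosin chaperone known from muscle, had 1 count in contralateral PT and 24 in Total, a ratio of 23.7 (interval 3.86 to 973). Unc45b stood at 0.05 to 1.24 CPM and 3.17 to 6.84 CPM (-4.22 ± 0.37).

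Whether obstruction changed a member differently in the fractions was tested as an interaction. At day 5, 1 of 97 members was called, Irx3os, against 4.27% of all genes (3.02% higher, 1.24% lower), and at day 10 2 were, Irx3os and Zeb2os, against 5.76% (4.68% higher, 1.08% lower). Irx3, an Iroquois homeobox factor, and its RNA both rose in PT. Irx3os stood at 0.198 to 1.20 CPM (median 0.335) in contralateral PT and 1.21 to 2.22 CPM (median 1.41) at day 5 (1.87 ± 0.35), and in Total at 0.248 to 0.885 CPM and 0.458 to 1.15 CPM (0.14 ± 0.35). The interaction was 1.71 ± 0.48 at day 5 (adjusted p = 0.027) and 1.59 ± 0.49 at day 10 (adjusted p = 0.035). The day 5 call was lost with no filter on low counts and without any 1 of 5 libraries (female contralateral Total 1 and 3, female contralateral PT 2, female day 5 PT 3 and male day 10 Total 3), and the day 10 call with 5 other settings, RLE factors and DESeq2 among them, and without any 1 of 10 libraries. Irx3 rose in PT at day 5 from 4.88 to 11.7 CPM to 13.5 to 27.1 CPM (1.27 ± 0.21), with an interaction of 1.07 ± 0.29 (adjusted p = 0.018), lost with RLE factors, DESeq2 or without any 1 of 4 libraries.

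Zeb2 encodes a repressor of epithelial genes that macrophages and fibroblasts also carry. Zeb2os stood at 1.32 to 3.10 CPM (median 1.84) in contralateral PT, 0.488 to 1.31 CPM (median 1.00) at day 5 and 0.398 to 0.996 CPM (median 0.603) at day 10, and fell by 1.25 ± 0.27 and 1.73 ± 0.27 on the log2 scale, the first lost with library size as the only scaling. In Total it was at 0.746 to 2.62 CPM and at 0.903 to 2.54 CPM at day 10 (0.16 ± 0.28). The interaction at day 10 was -1.85 ± 0.38 (adjusted p = 0.0009). Zeb2 in Total rose from 18.7 to 35.2 CPM to 46.9 to 103 CPM at day 5 (1.60 ± 0.17), and in PT it went from 5.88 to 12.9 CPM to 14.1 to 21.5 CPM (0.97 ± 0.17). The ratio of Zeb2os to Zeb2 dropped in both fractions at day 5, by 2.20 in PT without overlap and by 1.66 in Total (exact permutation p = 0.001429 and 0.004286). In M21, 48.2% of the exon bases of Zeb2os also belong to Zeb2 or to small RNAs on its own strand, so its count is uncertain.

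Of the 5 members highest per length, Ccpg1os, Cebpzos and Wdr83os changed by less than 2-fold after obstruction in both fractions. Ccpg1os stood at 57.3 to 78.1 CPM in contralateral PT and 58.7 to 74.2 CPM at day 5 (0.05 ± 0.10). In Total it was at 32.0 to 57.7 CPM and 34.7 to 42.8 CPM, and PT lay above Total by 0.81 ± 0.11 at day 5, under the 2-fold minimum. Cebpzos went from 42.4 to 66.6 CPM to 34.9 to 47.5 CPM in PT (-0.34 ± 0.14), with Cebpz at 53.1 to 86.2 and 54.4 to 83.9 CPM. Wdr83os, listed as protein coding, went from 14.5 to 28.4 CPM to 26 to 43.0 CPM (0.90 ± 0.20, adjusted p = 0.00063), and Wdr83 from 54.3 to 113 CPM to 47.3 to 73.8 CPM (-0.40 ± 0.19). Neither of this pair passed the 2-fold minimum, and yet their ratio rose by 1.28 in PT and by 1.17 in Total at day 5, without overlap (exact permutation p = 0.001429). In M21 52.3% of the exon bases of Wdr83os lie over Wdr83.

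The pair ratio was tested for the 26 named pairs in 9 comparisons, with two-sided p-values that are not adjusted. It moved with p under 0.05 in 15 pairs in PT at day 5 (6 upward, 9 downward, 8 without overlap), 12 in PT at day 10, 16 in Total at day 5 and 14 in Total at day 10. Between PT and Total it differed in 10 pairs in contralateral kidneys, 15 at day 5 and 13 at day 10. Between day 5 and day 10 it did in 3 pairs in each fraction. These pairs were chosen in part for large changes of the RNA, or for opposite calls of both genes, in the same libraries. That makes the counts, and the p-values of pairs so chosen, a description. The ratio was not taken for the other members or for other gene pairs, so these counts have no background share beside them.

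**Figure D4:**
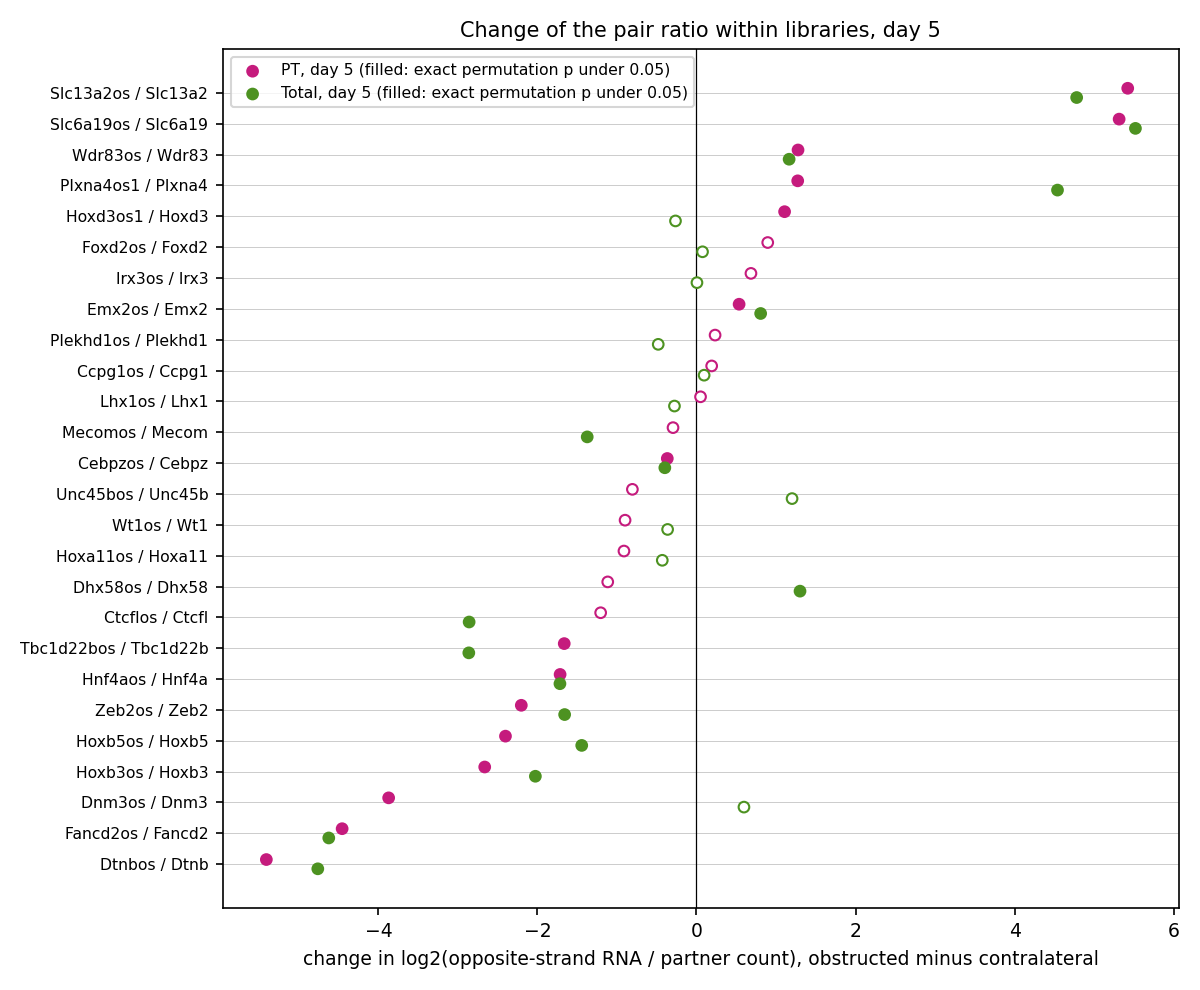
Change of the log2 ratio of opposite-strand RNA to partner from contralateral to day 5, in PT and in Total, for the 26 named pairs, with filled points where the exact permutation p was under 0.05. Slc6a19os and Slc13a2os lie farthest right in both fractions, and Dtnbos farthest left in PT.

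Within groups, the common variation of the RNA and its partner differed from pair to pair and was near 0 in the median pair. Over 39 pairs with at least 1000 summed counts for each gene, log2 CPM was correlated over the 42 libraries after removal of the group means. The correlation had a median of 0.027 and ranged from -0.514 (Rab10os) to 0.691 (Tmem51os1), with 23 above 0. Both genes of a pair share library, depth and scaling, and this is a description.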

How the data were processed

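The 42 libraries are 12 groups by sex, state and fraction, 4 male or 3 female each. The deposited counts are whole numbers of reads per gene symbol, and the deposited RPKM values are the authors' counts scaled for gene length and library size, as the name of their table says. STAR 2.0.4b, Subread and featureCounts 1.4.5 were used, per the submitters' processing notes. The genome build, the annotation, the strand setting and the treatment of reads shared by genes are not given in the sources used here, so GRCm38 annotation was matched by symbol.

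The members and gene lists were chosen with earlier results of these data known. Counts were tested with edgeR 4.0.16 (quasi-likelihood, robust, filterByExpr by group, TMM factors, R 4.3.3), in 1 fit per fraction for the states and 1 fit of both fractions for fraction and interaction, with equal weight to both sexes. Standard errors are the change divided by the root of F and are approximate. The pair ratio is log2 of counts plus 0.5, RNA over partner, within a library, tested by two-sided exact permutation within sex. A ratio resting on 1 to 3 counts has an exact 95% interval, and a side at 0 is set at 3 counts per library. Both cover counting error only. The tests were checked on simulated data.

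Named are Dtnbos and Ctcflos, the 5 largest called members with at least 1 CPM in a group in each of the 4 state comparisons and in PT against Total of contralateral kidneys, the 2 largest in each of the 6 other comparisons, the 5 highest by RPKM, pairs called in opposite directions in those first 5 comparisons, members beside listed kidney factors or Hox genes, and all their partners. A pair that the rule also named is not reported here. Alternatives were other scalings, filters, thresholds and pseudocounts, limma-voom 3.58.1, DESeq2 1.42.0, Lars2 level as a covariate, the replicate block, and each library left out. Same-numbered libraries correlated above 0.1 in all 7 numbers for day 10 against contralateral in Total (0.116 to 0.472). They also did for PT against Total in contralateral (0.37 to 0.679) and day 10 kidneys (0.13 to 0.86), and not in the other comparisons. The main fits and permutation tests did not use this pairing, so their standard errors and p-values take these libraries as independent. Only the replicate block paired same-numbered libraries.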

Additional observations from a re-analysis of the deposited data

Results flagged for a closer look

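In 10 of 108 groups of 7 libraries examined, 1 library stood apart from the others by more than Dixon's 95% limit, which chance alone passes in about 1 in 20 groups. Female day 5 Total library 3 was high for Plxna4os1 (7.01 CPM, the nearest other 4.23), Dhx58os (5.12, nearest 2.54) and Cebpzos (43, nearest 28.3). Hnf4aos was high in male day 10 PT library 4 (5.93 CPM, nearest 1.59) and in male day 5 PT library 1 (3.42, nearest 1.74). Irx3os was high in male contralateral PT library 1 (1.2 CPM, nearest 0.379) and female day 5 PT library 3 (2.22, nearest 1.54). Hoxb5os reached 43.6 CPM in female day 10 Total library 2 (nearest 25.8), and Cebpzos 53.2 CPM in female contralateral Total library 3 (nearest 39). Mecomos stood at 1.08 CPM in female day 10 Total library 1 (nearest 0.362).

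The response to obstruction differed between PT and Total, by the interaction term of edgeR's quasi-likelihood fit, for several named genes. At day 5 the difference, PT minus Total on the log2 scale, was 1.62 for Wt1 (adjusted p = 0.0033), 2.03 for Plxna4 (7.3e-05), 1.07 for Irx3 (0.018), 3.27 for Dnm3 (1.1e-09) and 1.71 for Irx3os (0.027). At day 10 it was 1.89 for Wt1 (adjusted p = 0.0004), 1.02 for Slc6a19 (0.035), 1.84 for Plxna4 (0.00017), 3.46 for Dnm3 (2.1e-10), 1.59 for Irx3os (0.035) and -1.85 for Zeb2os (0.0009). Most of these are partners: of the members only Irx3os and Zeb2os are among them.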

How the results depend on the processing

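No called change of a named gene or pair turned its direction under any alternative run. The balance of called members did with library size as the only scaling, from 11 higher and 13 lower to 19 and 6 in PT at day 5, from 11 and 13 to 16 and 10 at day 10, and from 14 and 16 to 21 and 8 in Total at day 5. Among all called genes the higher share moved too, from 59.6% to 83.2% and from 62.2% to 82.9% in PT at days 5 and 10. In Total at day 5 it moved from 59.1% to 80.4%. A filter of at least 5 CPM in 3 libraries left fewer members tested and gave 6 called in PT at day 5, 5 in PT at day 10, 12 in Total at day 5, 12 in Total at day 10, 9 for PT against Total in contralateral kidneys, 9 at day 5, 11 at day 10, and 0 for both interactions. Of all genes, 2722 and 2689 of 10690 were then called in PT, and 3429 and 3603 of 12197 in Total. For PT against Total these were 2385, 2605 and 2888 of 12384, and for the interactions 636 and 792. With no minimum fold 39 members were called in PT at day 10, against 8193 of all 14932 genes. At an adjusted p under 0.01 there were 17 for PT against Total in contralateral kidneys, 0 for the day 5 interaction and 1 for that at day 10. Of all 17110 genes, 3630, 487 and 645 were called in these. The compared groups alone gave 10 for PT against Total in contralateral kidneys and 1 for the day 10 interaction. All genes called there were 3115 of 14859 and 801 of 16679. Between day 10 and day 5, limma-voom called 1 member in PT and 1 in Total, and DESeq2 1 in Total. The day 5 interaction gave 3 with limma-voom, 3 with DESeq2, 2 with RLE and 2 with upper-quartile factors, and 0 with no filter. The day 10 interaction gave 4 with limma-voom, and 1 each with RLE factors, upper-quartile factors and no filter. With the replicate block the day 5 interaction gave 2, and the other 10 counts of members stayed within 1.5 times. The cause of these shifts was not tested.

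With each library left out, the members called ran from 22 to 29 in PT at day 5, 21 to 29 at day 10, 26 to 31 and 28 to 33 in Total, and 24 to 32, 31 to 37 and 30 to 38 for PT against Total in contralateral, day 5 and day 10 kidneys. Between day 10 and day 5 they were 0 in PT and 0 to 1 in Total (1 without female day 10 Total library 1). The interactions gave 0 to 2 at day 5 (0 without female contralateral Total library 1 or female day 5 PT library 3) and 1 to 4 at day 10. Pairs with a moved ratio between day 10 and day 5 were 1 to 5 in PT and 3 to 6 in Total. For PT against Total in contralateral kidneys they were 7 to 9, below the 10 of the full run. Low counts limit most members: few reached 5 CPM, and reads over shared exons cannot be divided without the strand setting.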

Other observations

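Among called members not named by the rule above, and chosen here after their values were seen, several stood apart from their partners. Lppos, beside the focal adhesion gene Lpp, fell in PT from 12.3 to 21.2 CPM to 2.69 to 8.87 CPM at day 5 (-1.21 ± 0.24, edgeR adjusted p = 0.00027), while Lpp changed by 0.16 ± 0.12 and was not called. Fam120aos fell by 1.20 ± 0.26 on the log2 scale at day 5 and by 1.56 ± 0.27 at day 10, and Fam120a was not called (-0.39 ± 0.20 and -0.33 ± 0.19). Has2os, beside the hyaluronan synthase gene Has2, rose in PT from 0 to 0.251 CPM to 0.422 to 1.34 CPM (2.85 ± 0.47), and Has2 was too low to test there. Junos rose with Jun, a transcription factor of the early stress response, by 1.48 ± 0.36 against 2.92 ± 0.29.

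Male and female libraries of Abhd11os and Dtnbos, chosen after their values were seen and not tested, did not overlap in some groups. For Abhd11os this was so, with medians at least 2-fold apart, in 4 of its 6 groups, in males at 10.1 to 16.8 CPM against 4.29 to 6.19 CPM in contralateral PT, and 16.3 to 23 CPM against 6.79 to 8.45 CPM at day 10 in PT. Dtnbos met both conditions in contralateral Total alone, at 6.52 to 7.13 CPM in females against 2 to 3.46 CPM in males. Of 781 combinations of a gene and a group looked at, 13 met both conditions, partner genes among them. With 4 male and 3 female libraries some combinations can separate by chance. The 13 also held Hnf4aos at day 10 in PT (males 1.35 to 5.93 CPM, females 0.317 to 1.2 CPM). Dhx58os at day 5 in Total and Foxd2os in contralateral Total were among them too, both higher in females.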
